A study of Mus musculus with 2 samples.

Results

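Distal MEF2A peaks that carry an ETS-IRF composite element, and neither a MEF2 element nor an AP-1 element, are described here in CH12.LX, an immortalized mouse line of B lymphoma origin. A peak was a member when its summit lay more than 1 kb from every protein-coding transcript start site (TSS) of GENCODE vM1 on mm9 and the composite GGAANNGAAA, where N is any base, lay within 50 bp of the summit on either strand. Peaks with the MEF2 consensus, or with the AP-1 element TGACTCA or TGAGTCA, in the same window were left out. The rule used position and sequence only, never the signal. Of the 16839 peaks of the mm9 list, 13225 were distal and 740 held the composite, of which 666 were distal. Among those, 33 also held the MEF2 consensus and 37 the AP-1 element, and 598 peaks remained once both kinds were removed.

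MEF2A was mapped by chromatin immunoprecipitation and sequencing (ChIP-seq) in 2 biological replicates, which form 1 group. The cells are an untreated immortalized line, listed as female and of strain B10.H-2aH-4bp/Wts, so every value comes from 1 line and no other factor, genotype or treatment was compared. The mm9 list was made from both replicates, and the replicates stand apart only in lists on another build, mm10. The comparison group throughout is the 9954 other distal peaks that hold no composite, MEF2 or AP-1 element within 50 bp of the summit.

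The composite element is read by a pair of factors. An ETS factor of the PU.1 and SpiB subgroup binds the GGAA core, and IRF4 or IRF8, which bind the GAAA core weakly on their own, join it beside the ETS factor. In B cells such elements are known from immunoglobulin light chain enhancers and from many enhancers of germinal centre and antigen-presentation genes. MEF2A itself is a MADS-box factor that binds an AT-rich element. The peaks described here lack the exact consensus of this precipitated factor within 50 bp of the summit. The rule did not cover the rest of each peak. Which other proteins were bound at them was not measured, and ChIP-seq holds no expression values with which to check the labelled cell type.

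The windows around the composites of 8 of the 9 strongest members are shown because they carry the element in several of its forms. They are read from NCBIM37 (mm9), 5′ to 3′ on the strand of the composite, with the composite in capitals, and each is named by its nearest protein-coding gene.
Cmya5, chr13:93864261-93864320, minus strand: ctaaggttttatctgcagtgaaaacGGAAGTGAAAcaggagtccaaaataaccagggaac
Arpc5l, chr2:38867010-38867069, plus strand: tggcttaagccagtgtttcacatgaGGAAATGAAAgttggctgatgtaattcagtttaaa
Necap1, chr6:122822988-122823047, plus strand: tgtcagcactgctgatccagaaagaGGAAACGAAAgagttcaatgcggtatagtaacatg
Bcar3, chr3:122165298-122165357, plus strand: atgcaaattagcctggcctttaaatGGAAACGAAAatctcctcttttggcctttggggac
Nek7, chr1:140511300-140511359, plus strand: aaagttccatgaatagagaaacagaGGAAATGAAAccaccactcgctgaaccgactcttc
Kcna5, chr6:126388525-126388584, plus strand: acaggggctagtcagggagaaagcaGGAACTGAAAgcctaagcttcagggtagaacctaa
Ccr1l1, chr9:123890649-123890708, plus strand: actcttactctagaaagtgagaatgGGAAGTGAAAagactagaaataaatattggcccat
Ncapd3, chr9:26878623-26878682, plus strand: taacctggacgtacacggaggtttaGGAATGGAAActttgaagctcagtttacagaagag
These 8 windows held the spacers GT, AT, AC, CT and TG between the cores, and the Bcar3 window also held the octamer ATGCAAAT, the site of OCT factors, upstream of its composite. The 5 windows that follow lie near genes of the B cell and signalling lists described further on, in the same format.
S1pr1, chr3:115432258-115432317, plus strand: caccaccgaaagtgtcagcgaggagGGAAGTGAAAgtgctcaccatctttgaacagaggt
Rel, chr11:23678879-23678938, plus strand: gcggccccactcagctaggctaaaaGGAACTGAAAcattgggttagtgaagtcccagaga
Pax5, chr4:44684048-44684107, plus strand: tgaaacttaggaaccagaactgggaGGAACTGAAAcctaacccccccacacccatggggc
Grb2, chr11:115554317-115554376, plus strand: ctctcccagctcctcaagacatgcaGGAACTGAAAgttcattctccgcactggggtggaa
Ccr7, chr11:98993888-98993947, minus strand: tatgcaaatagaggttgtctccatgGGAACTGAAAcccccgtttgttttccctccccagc
The Ccr7 window, like that of Bcar3, held ATGCAAAT on its 5′ side.

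The strongest member had a signal of 835 and was the 31st strongest of all distal peaks. It lay in an exon of Cmya5, which encodes a protein of striated muscle, 50370 bp into the gene, and its signal was 155 in replicate 1 and 189 in replicate 2. In those replicate lists it held ranks 47 and 115 of 300000 intervals. A member in an intron of Setbp1 followed with 796, and with 137 and 224 in replicates 1 and 2. The member in an intron of Arpc5l, a subunit of the actin-nucleating Arp2/3 complex, had 688, with 133 and 213. All 3 ranked within the first 115 intervals of both replicate lists. The signal scale is set by each call, so a value in one list is not comparable with a value in another, and ranks are used between lists.

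The next members lay 1449 bp upstream of Necap1, an endocytosis factor, with a signal of 510, and in an intron of Bcar3, an adaptor of adhesion signalling, with 500. Ranks in replicates 1 and 2 were 157 and 149 at Necap1 and 292 and 130 at Bcar3. An intron of Nek7, a kinase of the NLRP3 inflammasome pathway, held a member of signal 492 with ranks 244 and 185. The peak nearest to Kcna5, a potassium channel gene 97007 bp away, had 484, and that 2557 bp from Ccr1l1, a chemokine receptor-like gene, had 471. Members at Ncapd3 (a condensin subunit), Plek2 (pleckstrin 2), BC031353 and Myh10 (a non-muscle myosin heavy chain) ranged from 431 to 401. Replicate ranks from Kcna5 to Myh10 lay between 176 and 653. The 12 strongest members were therefore high in both replicates, and no gene was shared among them.

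Signal at the members ran from 39.3 to 835 with a median of 70.5, against a median of 62.5 in the comparison group. Ranked among all distal peaks, where 100 is the strongest, the median percentile was 55.4 (95% interval 51.8 to 59.4) for members and 47.0 (46 to 48) for the comparison group. Of 598 members, 145 (24.2%, 21 to 27.8) lay among the strongest 20% of distal peaks, beside 20.0% of all distal peaks by construction and 17.4% (16.7 to 18.2) of the comparison group. At the other end, 102 members (17.1%, 14.3 to 20.3) lay among the weakest 20%, against 21.5% (20.7 to 22.3) of the comparison group. Intervals of shares are Wilson intervals, those of medians come from order statistics, and both cover counting error over peaks only. With 1 group of 2 samples there is no test across samples for any of these differences.

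Read the other way round, the composite was held by 4.86% (3.75 to 6.27) of the weakest 10% of distal peaks free of MEF2 and AP-1 elements and by 7.73% (6.15 to 9.66) of the strongest 10%. The 7 lower classes lay between 4.24% and 5.60%, and the 3 upper ones between 6.61% and 7.73%. Of all distal peaks, including those with MEF2 or AP-1 elements, 4.52% were members, beside 3 of the 100 strongest (3%, 1.03 to 8.45) and 26 of the 500 strongest (5.20%, 3.57 to 7.51). Members thus spread over the whole range of signal with a modest tilt upward. Peaks with the MEF2 consensus tilted more, with 35.9% (33.1 to 38.8) in the strongest 20% and a median percentile of 68.2. Peaks with AP-1 but no MEF2 element had 23.8% (21.7 to 25.9). Among peaks without MEF2 or AP-1, some of them members, those with the octamer had 24.8% (20.9 to 29.1) and those with NF-kB 18.7% (16.3 to 21.4). The AP-1, octamer and NF-kB intervals overlapped that of the members, while the MEF2 interval lay above it.

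**Figure D1:**
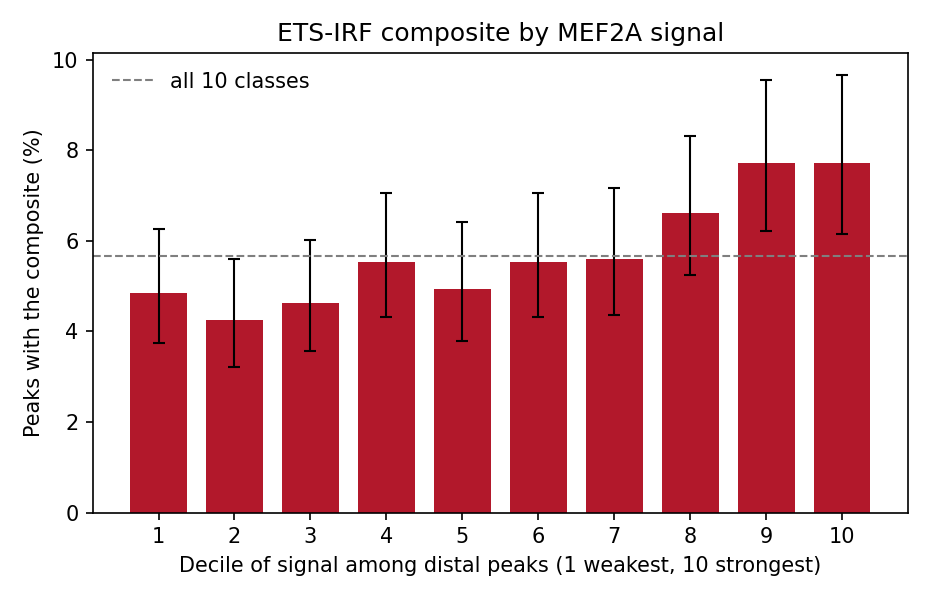
Share of distal peaks without MEF2 or AP-1 elements that hold the ETS-IRF composite (y axis, %) in 10 classes of deposited signal (x axis, 1 weakest), with Wilson 95% intervals as bars and the share over all classes dashed. The share runs from 4.86% in class 1 to 7.73% in class 10.

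The 2 elements were found together far more often at 1 spacing than at others. Within 50 bp of distal summits, GGAA followed on the same strand by GAAA occurred at a spacer of 2 bases in 666 peaks. At the other spacers from 0 to 10 bases the count was 109 to 226 peaks with a median of 148, so that the spacer of 2 stood 4.50 times above that median. In windows of the same length 200 bp to each side of the same summits the spacer of 2 was held by a mean of 129 peaks, close to its neighbours there. The count at the summit was 5.16 times that flank count for a spacer of 2, and 1.75 times for a spacer of 3 (226 peaks). For no other spacer in this order was it above 1.48 times. Since the rule asks for the spacer of 2, it is the other spacers and the flanks that carry the comparison.

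The reverse order had the same preferred spacing. GAAA followed by GGAA with 2 free bases, GAAANNGGAA, lay in 417 distal peaks, 3.27 times its flank mean of 127.5, and with 3 free bases in 201 peaks, 2.18 times its flank mean. It was present in 46 members (7.69%) and in 321 peaks of the comparison group (3.22%); a match can overlap the composite, since both motifs can share a GGAA or a GAAA. On opposite strands the cores gave at most 139 peaks at any spacer from 0 to 10. The largest ratio among these, 3.64 for cores facing away with no spacer, rested on 20 peaks against a flank mean of 5.5.

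**Figure D2:**
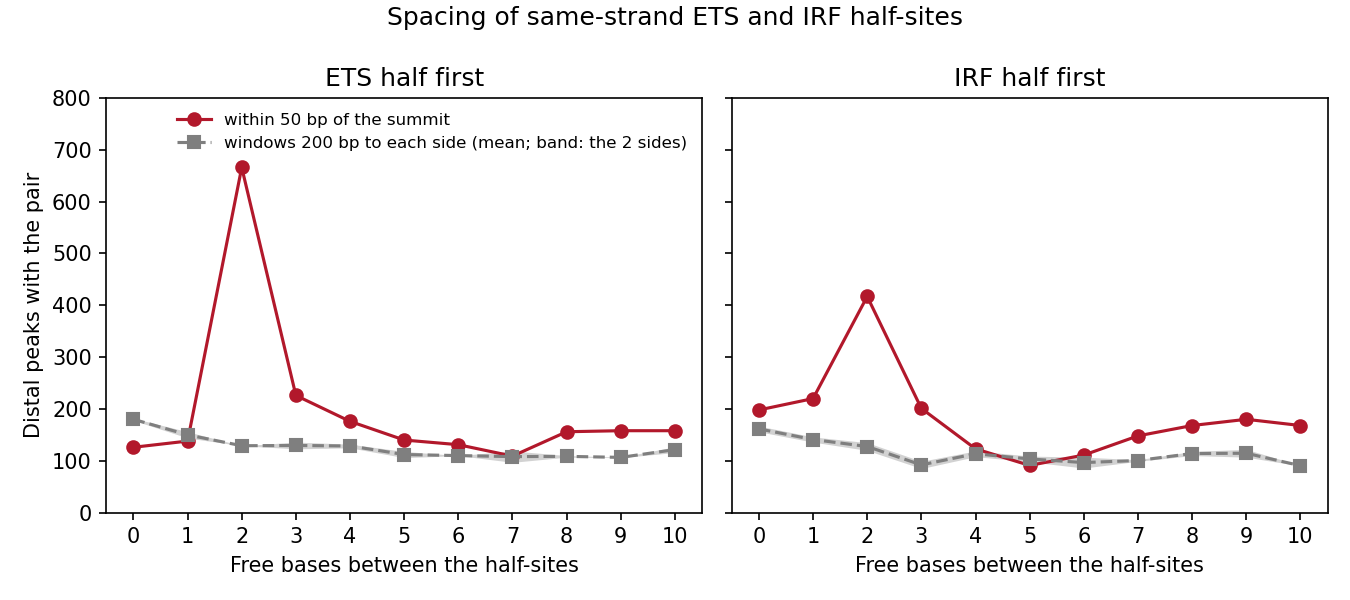
Number of distal peaks (y axis) with GGAA before GAAA on one strand (left) or GAAA before GGAA (right), by the number of free bases between them (x axis); red circles are windows within 50 bp of the summit, grey squares the mean of windows 200 bp to each side, and the grey band spans those sides. Both orders peak at 2 free bases, with 666 and 417 peaks.

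Composites were gathered at the summits. Over all distal peaks there were 70.8 composites per 10 bp step within 50 bp of the summit and 15.6 per step between 150 and 300 bp away, a ratio of 4.54. The highest step held 107 and lay 20 to 30 bp before the summit on the composite's strand, while steps beyond 150 bp held 8 to 23. Among members, where the rule limits the distance to 50 bp, the composite's centre was a median of 20.5 bp from the summit (quartiles 11.5 and 30.5). It lay within 20 bp in 281 members (47.0%), beside 43.5% for an even spread over the allowed places. The summit lay on the ETS side of the centre in 289 members and on the IRF side in 309, so that 48.3% (44.3 to 52.3) were on the ETS side. Members whose composite was centred more than 30 bp away (158) had a median signal percentile of 44.9 (38 to 56.3), while the 3 nearer classes had medians of 55.4 to 60.1. The intervals of these nearer classes, 49.3 to 64.0 (within 10 bp), 48.0 to 66.2 (10 to 20 bp) and 54.2 to 67.0 (20 to 30 bp), all overlapped it. Their shares in the strongest 20% were 23.3% to 26.1%, beside 22.2% for the far class. All but 8 members held 1 composite. The 8 with more than 1 had a median signal of 51.1. None of these 8 was in the strongest 20% (interval 0 to 32.4%), and that interval includes the 24.2% of all members.

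**Figure D3:**
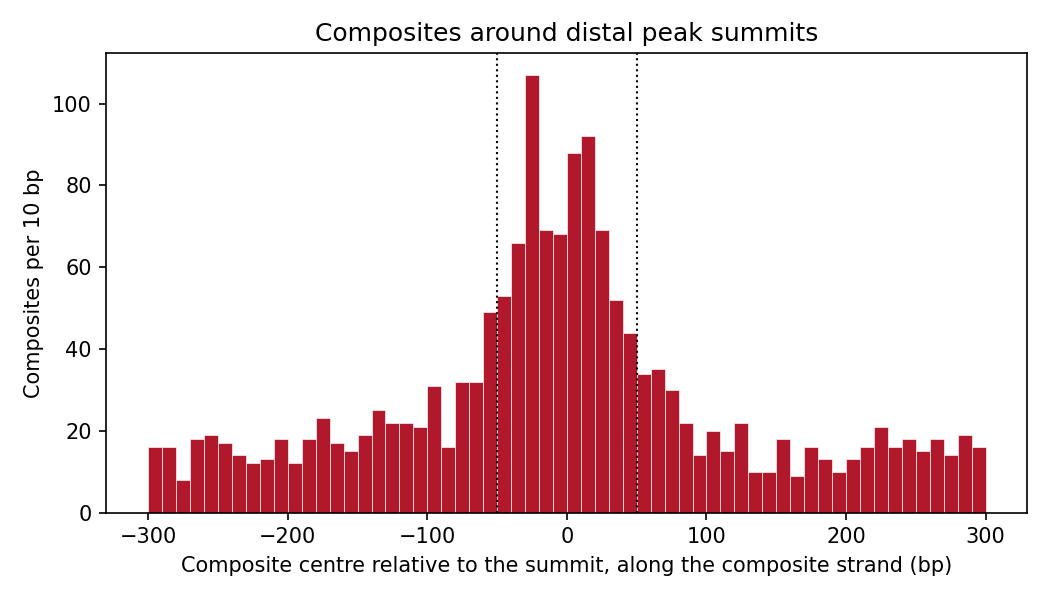
Number of composites (y axis) per 10 bp step of distance between the composite's centre and the summit (x axis, bp, along the composite's strand) over all 13225 distal peaks; dotted lines mark 50 bp. Steps within 50 bp hold 44 to 107 composites and steps beyond 150 bp hold 8 to 23.

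The letters the rule left free were not evenly used. Counting positions from 1 at the 5′ end of the composite, position 6, the base just before the IRF core, was T in 65.6% of members (61.7 to 69.3), against 21.1% of the 280 composites found 200 bp from distal summits. Position 5 was G in 38.6% and C in 35.8% of members, where the flank composites had A in 51.4%. The spacer GT was therefore the commonest, in 180 members (30.1%, 26.6 to 33.9; 3.57% of flank composites), ahead of CT in 143 (23.9%, 20.7 to 27.5; 3.93%), AT in 63 and CA in 52. Purine-rich spacers were common in the flanks and rare in members: AG was in 3.01% of members and 20.7% of flank composites, and AA in 1.84% and 15.7%. No member had TC, which with 598 members allows a share of up to 0.502% (3 counts). TC was as rare in the flanks, in 1 of the 280 composites (0.357%). Base composition may differ between summits and flanks, and its part in these differences was not tested.

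Outside the element, the base after it (position 11) was C in 40.5% of members (36.6 to 44.5) and in 13.2% of flank composites. Position −2 was G in 43% of members and 23.2% of flank composites, and position −1 was A in 55% and 51.8%. The letters GA before GGAAGT spell GAGGAAGT, the preferred site of PU.1 and SpiB, and 47 members (7.86%) held that site across the ETS core of the composite. Those 47 had a median signal of 63.7 and 7 of them were in the strongest 20%. Of the commoner spacers, AT had the largest share in the strongest 20%, 22 of 63, and CT had 41 of 143, while GT, the most frequent, had 39 of 180 (21.7%). Median percentiles were 63.3 (49 to 72.1) for AT, 63.0 (54 to 69.1) for CT and 54.7 (45.8 to 63.4) for GT, and these intervals overlap.

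Changing 1 fixed letter of the composite removed most of the excess at the summit. Of the 24 single substitutions, 16 had less than 1.5 times as many peaks at the summit as in the flanks, and the median ratio was 1.09. The highest were A9G with 2.97 (334 peaks), G2A with 2.74 (547 peaks), which turns the element into the tandem IRF form GAAANNGAAA, and G1A with 2.41 (470 peaks). All 6 changes of A3 and A4, in the ETS core, lay between 0.99 and 1.11, and the 3 changes of G7 between 0.832 and 1.07. A10T was at 0.603 (38 peaks). Each ratio is lower than the 5.16 of the intact composite.

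A small group of members shared far more sequence than the element. When the 30 bases to each side of every composite were aligned on it, 27 members (4.52%) matched another member at 55% or more of those 60 bases, in 6 groups of 13, 4, 4, 2, 2 and 2. All 13 members of the largest group carried GGAATAGAAA and made up 13 of the 25 members with the spacer TA. Windows of 70 bases from 4 of them are shown because the shared stretch runs on both sides of the composite (NCBIM37, strand of the composite, composite in capitals).
Dcps, chr9:34990522-34990591, plus strand: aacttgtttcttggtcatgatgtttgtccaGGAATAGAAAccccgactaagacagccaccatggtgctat
Otol1, chr3:71013759-71013828, minus strand: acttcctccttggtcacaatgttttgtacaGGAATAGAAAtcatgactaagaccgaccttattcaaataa
Cd4, chr6:124844300-124844369, plus strand: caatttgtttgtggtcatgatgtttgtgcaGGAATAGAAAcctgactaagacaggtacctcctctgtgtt
Lphn3, chr5:82489932-82490001, minus strand: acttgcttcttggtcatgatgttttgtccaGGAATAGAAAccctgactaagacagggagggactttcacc
The group of 4 with the highest signal carried GGAACTGAAA, and 3 of its windows are these.
Gm5549, chr3:132244313-132244382, plus strand: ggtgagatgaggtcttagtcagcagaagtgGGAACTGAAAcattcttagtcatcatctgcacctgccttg
Syn3, chr10:85938211-85938280, minus strand: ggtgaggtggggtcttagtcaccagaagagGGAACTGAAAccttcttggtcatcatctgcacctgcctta
4933403G14Rik, chr8:128223572-128223641, plus strand: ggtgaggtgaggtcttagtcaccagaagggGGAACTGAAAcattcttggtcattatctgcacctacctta
The named genes are only the nearest ones and were chosen after their values were seen.

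Copies of 1 sequence did not carry 1 level of signal. In the largest group the signal ran from 40.7 to 345 with a median of 110, and 6 of 13 lay in the strongest 20% of distal peaks. Dcps, which neighbours the Toll-like receptor adaptor gene Tirap, had 345, Otol1 277 and Cd4 196, whereas Lphn3 had 47.3. In the second group Gm5549, Meis1 and Syn3 had 250, 230 and 220, and 4933403G14Rik had 64.1. In replicates 1 and 2, the Dcps peak had signals of 53.1 and 76.5, the Otol1 peak 75.1 and 104, and the Cd4 peak 37.7 and 71.7. By rank, Dcps was 456 in the mm9 list but 1317 and 1878 in replicates 1 and 2. Otol1 was 713, then 614 and 957, and Cd4 was 1310, then 2602 and 2131. Otol1 thus ranked above Dcps in both replicates, unlike in the mm9 list. No repeat annotation was used here, so the copies are not named, and how reads were assigned among them was not tested. Without the 27 members, 571 remain, the share in the strongest 20% is 23.6% and the median percentile is 55.3.

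Other B cell motifs were no more frequent beside the composite than elsewhere. Of 18 further motifs counted where they did not overlap the composite, 17 had a lower share in members than in the comparison group, and the remaining one, AGATAA, which GATA factors read, had 3.85% (2.58 to 5.71) against 3.28%. The clearest difference was NF-kB, in 18 members (3.01%, 1.91 to 4.71) against 9.04% (8.49 to 9.62), with 7.0% of all mm9 peaks holding it. CTCF was in 1 member (0.167%) against 1.72%, and 1.32% of all peaks. The E-box forms CAGCTG and CAGGTG were in 92 members (15.4%, 12.7 to 18.5) against 20.8% (20 to 21.6), RUNX (TGTGGTT) in 5.18% against 7.64%, and EBF1 (TCCCNNGGGA) in 0.669% against 1.61%. Both strands were searched, and a member has less room for a separate match because the composite takes 10 of its bases. The median GC content of the windows was 46.5% in members and 48.5% in the comparison group.

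The octamer (ATGCAAAT) was in 17 members (2.84%, 1.78 to 4.51) and in 4.01% of the comparison group, with 3.12% of all peaks. A PU.1 and SpiB site apart from the composite was in 15 members (2.51%) against 3.47%, and a separate tandem IRF element in 18 (3.01%) against 4.31%. When matches that overlap the composite were counted, the share in members was the higher one for PU.1 and SpiB (58 members, 9.70%), tandem IRF (34, 5.69%), NF-Y (62, 10.4%) and STAT (3, 0.502% against 0.442%). GATA, already higher without overlaps, was at 4.01% against 3.28%. The rule itself puts GGAA and GAAA in every member. The PU.1 and SpiB site and the STAT site contain GGAA, and the tandem IRF element contains GAAA. Counting overlaps therefore raises the shares of these motifs by construction, and they draw no contrast with a group that lacks the composite. The NF-Y site contains neither GGAA nor GAAA, and its 10.4% stood beside 9.52% of the comparison group. A looser MEF2 core (TA, 4 bases each A or T, TA) was in 23 (3.85%, 2.58 to 5.71) against 5.59% (5.15 to 6.05). Outside the composite, NF-Y (CCAAT) was at 9.36% (7.28 to 12.0) in members and 9.52% (8.96 to 10.1) in the comparison group. In all, 426 members (71.2%) held none of 7 of these motifs, and their median percentile of 56.1 was close to the 56.3 of the 150 members that held 1. With windows of 100 bp, STAT (TTCCNGGAA) and KLF (GGGTGTGG) turned to a higher share in members, 1.14% against 0.795% for STAT, as did the AP-1 element with 1 letter changed with windows of 25 bp. In both, GATA stayed higher and the other 14 motifs lower.

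By position in the genome the members resembled the comparison group. Introns held 46% of members, exons 3.68% and intergenic sequence 50.3%, against 47.8%, 2.70% and 49.5%. The median distance to the nearest protein-coding TSS was 20624.5 bp for members and 21984 bp for the comparison group, and 79 members (13.2%) lay over 100 kb away. Another mm9 peak lay within 10 kb of 306 members (51.2%, 47.2 to 55.2) and of 54.1% of the comparison group. Of 598 members, 12 (2.01%, 1.15 to 3.47) had another member within 10 kb. In the comparison group, 3.88% (3.52 to 4.28) had a member within that reach. None of the 35 distal peaks within 50 kb of an immunoglobulin gene was a member, which allows a share of up to 8.57% (3 counts); 105 of the 481 immunoglobulin genes of the annotation had a distal peak in that reach.

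Within 50 kb of a TSS, 816 of 22238 protein-coding genes (3.67%) had a member, and 39.1% had any distal peak. Of these, 781 genes had 1 member, 34 had 2 and 1 had 3, namely Hexim2, which was named after its value was seen. Gene lists of B cell and other functions were counted in the same way, and 1 listed symbol, H2-Ea, was not matched. Each list's share stands beside 3.67%, but genes of B cell lists also have more distal peaks of any kind: 21 of 24 B cell identity genes, 11 of 12 IRF genes and 15 of 17 MHC class II genes had one. Of genes of other tissues, 0 of 28 striated muscle genes and 0 of 21 hepatocyte genes had a member, which allow shares of up to 10.7% and 14.3% (3 counts), and 1 of 23 neuronal genes had one. A distal peak of any kind lay near 15 of the muscle, 6 of the hepatocyte and 9 of the neuronal genes, and of all genes with a distal peak 9.39% had a member. Within 100 kb of a TSS, 3.57% of the striated muscle genes, 8.70% of the neuronal genes and no hepatocyte gene had a member, beside 6.91% of all genes. The strongest member, in an exon of Cmya5, lay 50370 bp from the nearest TSS, just outside the 50 kb reach. The shares depend on the reach: within 10 kb of a TSS, 0.895% of all genes had a member, as did 13.6% of the B cell receptor signalling genes (as at 50 kb), 8.33% of the B cell identity and of the IRF genes, 5.88% of MHC class II genes and none of the Toll-like receptor, homing receptor or germinal centre genes.

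Among the genes of the factors that read the element, 4 of 12 IRF family and partner genes (33.3%, 13.8 to 60.9) and 2 of 16 ETS genes (12.5%, 3.50 to 36) had a member. These peaks were weak or middling. The member 20808 bp upstream of Irf4, which encodes a partner of PU.1 in B cells, had a signal of 56.9, and 29.5 and 28.4 in replicates 1 and 2. Its rank was 4103 in replicate 1 and 11294 in replicate 2, so the replicates placed it differently. The member 25191 bp from Batf3, a partner of IRF8 in dendritic cells, had 42.3 and held more than 1 composite. Of the ETS genes, Etv3 had a member of signal 95.8 and Elk3, a repressor, one of 67.1.

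B cell identity genes had members at 6 of 24 (25%, 12 to 44.9). The strongest lay in an intron of Pax5, the B lineage commitment factor, 39215 bp from a TSS, with a signal of 243, and with 82.4 (rank 490) in replicate 1 and 74.8 (rank 1955) in replicate 2. Ikzf1, which encodes Ikaros, had one of 91.1 located 26009 bp upstream, with ranks 5690 and 7273. Cd79b, a chain of the B cell receptor, had one of 84.3 at 8574 bp, with ranks 4905 and 7796. All 3 ranked better in replicate 1. Among B cell receptor signalling genes 3 of 22 (13.6%, 4.75 to 33.3) had members: the adaptor Grb2 with 153 in an intron, the phospholipase Plcg2 with 70.4 and the kinase Prkcb with 46.1.

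MHC class II presentation genes had the highest share, 6 of 17 (35.3%, 17.3 to 58.7), but rested on few peaks. A single peak of signal 66.1 near Psmb9 on chromosome 17 lay within 50 kb of H2-DMa, H2-DMb1 and H2-DMb2, and of the interferon-stimulated Tap1, Psmb8 and Psmb9, which were 3 of 26 in their list. Its signal was 9.61 in replicate 1 (rank 32183) and 36.4 in replicate 2 (rank 7412). The other members were those of the costimulatory ligand gene Cd86, with 117, of the invariant chain gene Cd74, with 83.1, and of the class II transactivator gene Ciita, with 45.1 in an intron. Counted by the nearest gene only, the list had 11.8%.

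Toll-like receptor pathway genes had members at 5 of 20 (25%, 11.2 to 46.9). The peak of Tirap, an adaptor of TLR2 and TLR4, is the one of 345 near Dcps, a copy of the shared sequence. Irak2, a kinase downstream of the receptors, had 164 from a peak nearest to Ghrl, and Ly86, a cofactor of the receptor RP105, had 122. NF-kB pathway genes had members at 3 of 22 (13.6%, 4.75 to 33.3). The peak 7968 bp upstream of Rel, which encodes c-Rel, had 262, with 49.0 (rank 1555) in replicate 1 and 118 (rank 699) in replicate 2. Bcl2l1, which encodes the survival protein Bcl-xL, had 118 in an intron and Tnf 66.6. The Rel and Irak2 peaks ranked better in replicate 2.

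Homing receptor genes had members at 3 of 15 (20.0%, 7.05 to 45.2). S1pr1, the receptor for lymphocyte egress, had a peak of 275 located 14347 bp upstream, with 70.3 (rank 730) and 98.0 (rank 1106) in replicates 1 and 2. Ccr7, which guides lymphocytes to T zones, had 128, with ranks 3690 and 1519, and Cxcr4 had 68.1, with ranks 6257 and 7323. Cxcr4 was also the 1 of 15 germinal centre and plasma cell genes with a member. Of 21 T cell genes 2 had one (9.52%, 2.65 to 28.9), among them Cd4, whose peak of 196 is another copy of the shared sequence. Itgam, an integrin of myeloid cells, had 52.0 and was 1 of 23 phagocyte targets of ETS and IRF factors.

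**Figure D4:**
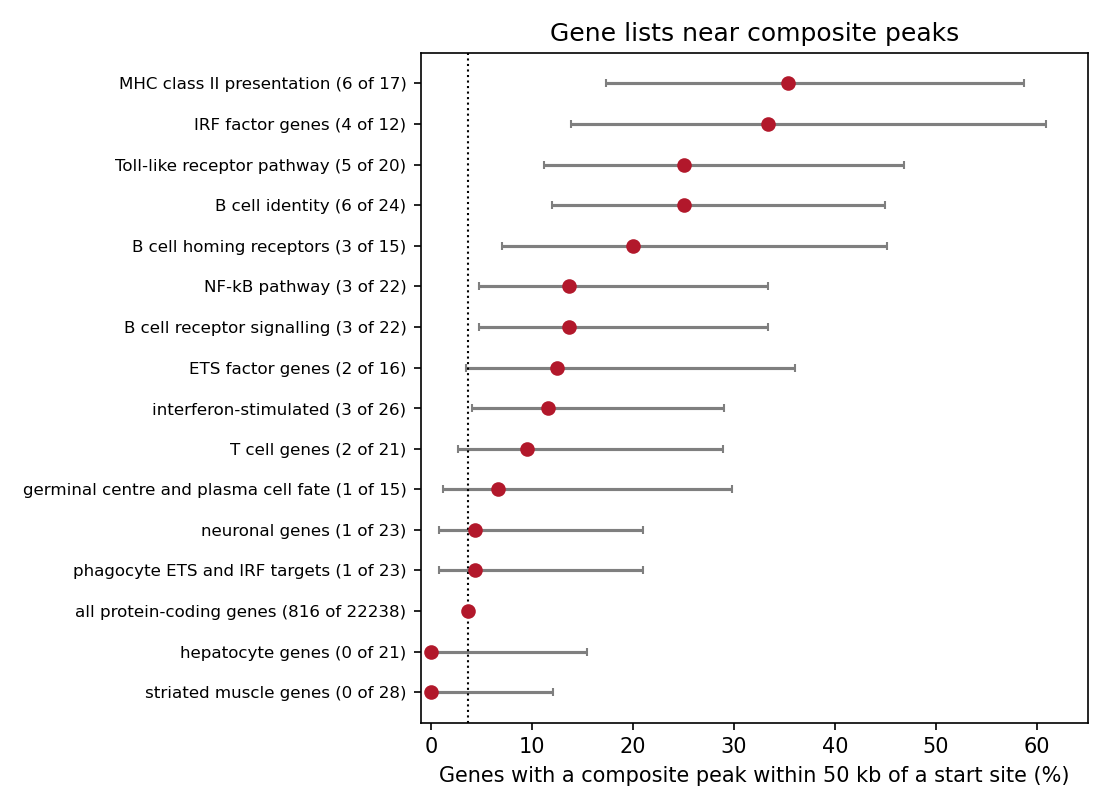
Share of genes (x axis, %) with a composite peak within 50 kb of a TSS for each gene list (rows, with counts), with Wilson 95% intervals; the dotted line is the share of all protein-coding genes, 3.67%. MHC class II presentation (35.3%) and IRF factor genes (33.3%) are highest, and muscle and hepatocyte genes are at 0.

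The replicates were read through the mm10 lists. A member was paired with an optimal mm10 peak when both summits lay at the same distance, within 50 bp, from the same gene end, which succeeded for 525 of 598 members (87.8%, 84.9 to 90.2), beside 86.5% of all distal peaks. When the distance was moved by 5 kb as a control, 7 members (1.17%) found a partner. Both replicate lists covered 519 paired members. Their median signal was 24.6 in replicate 1 and 38.2 in replicate 2, against 20.1 and 35.8 in the comparison group.

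The members stood further above the comparison group in replicate 1 than in replicate 2. Ranked among the 11231 distal peaks covered by both lists, their median percentile was 60.9 (57.8 to 64.6) in replicate 1 and 51.7 (47.7 to 56.4) in replicate 2, whereas the comparison group had 47.6 and 47.3. The strongest 20% held 24.5% of members (21 to 28.3) in replicate 1 and 21.4% (18.1 to 25.1) in replicate 2, against 18% (17.2 to 18.8) and 17.8% (17 to 18.6). In replicate 2 the members' interval overlapped that of the comparison group. Of the 519, 278 (53.6%, 49.3 to 57.8) ranked better in replicate 1, against 43.0% (41.9 to 44.1) of the comparison group and 42.7% (41.8 to 43.6) of all distal peaks. So did 46% (41.0 to 51.2) of octamer peaks without MEF2 or AP-1, an interval that overlapped that of the members. The shares were 40.0% of AP-1 peaks without MEF2 and 38.2% of MEF2 peaks. Without the members that share sequence, the share of members was 53.7%. Each replicate is 1 library, so whether other cultures would show either level was not tested.

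**Figure D5:**
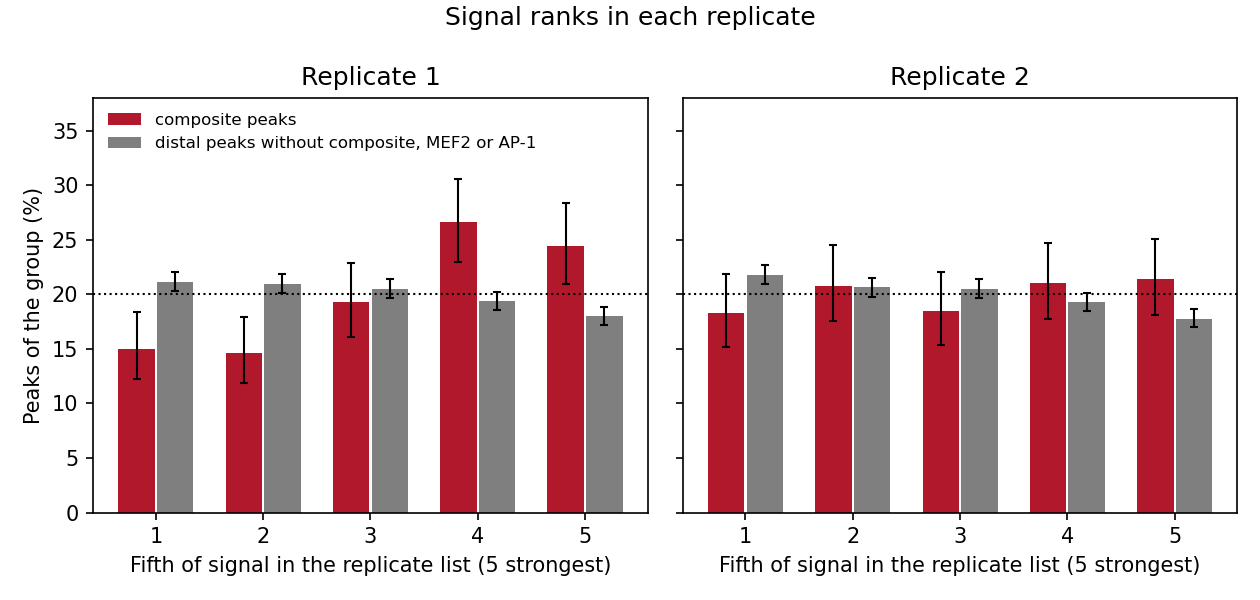
Share of each group (y axis, %) in 5 equal classes of signal (x axis, 5 strongest) in the list of replicate 1 (left) and replicate 2 (right), with Wilson 95% intervals; red, 519 composite peaks, grey, 8321 distal peaks without composite, MEF2 or AP-1, dotted line, 20%. In replicate 1 the composite peaks hold 26.6% and 24.5% in classes 4 and 5, and in replicate 2 they hold 21% and 21.4%.

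Of the 519, 95 (18.3%) were in the strongest 20% of both replicates, against 13.8% of the comparison group and 15.8% of all distal peaks. The share was 28.7% for MEF2 peaks and 17.3% for AP-1 peaks without MEF2. Without MEF2 or AP-1, it was 18.9% for octamer peaks and 13.8% for NF-kB peaks.

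The member nearest to a TSS, 1006 bp from Fmnl1, had a signal of 48.9, and the composite peak just inside the promoter limit, 974 bp from Ppfibp2, had 151. The 45 members whose composite ended 46 to 50 bp from the summit had a median signal of 79.6, and the 72 distal peaks whose composite ended at 51 to 60 bp, which the rule leaves out, had 71.2.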

How the data were processed

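Per the texts deposited with the samples, 1 peak list on mm9 was made from the alignments of both CH12.LX replicates, each replicate has a relaxed mm10 list called with a control, and an optimal and a conservative mm10 set were thresholded by reproducibility (IDR) from pooled and replicate calls. Aligner and peak caller: not given in the sources used here. Signal values were used as deposited, and between lists only its ranks were compared. Read depth is unknown. Summit windows were read from NCBIM37 and motifs were exact matches on either strand. Genes came from GENCODE vM1, and 6 older symbols were matched through a RefSeq table. No coordinates were converted: peaks of both builds were paired by their distance (within 50 bp) from the nearest end of a gene whose length on both builds agreed within 50 bp (9026 of 18974 symbols). With 1 group of 2 samples no test was made.

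Genes named are those nearest to the 12 strongest members, up to 3 per list with the strongest member, and any with 4 or more members within 50 kb of a TSS (none); some genes these rules select are not reported here. The members, motifs and lists were chosen with earlier results of these data known. Member calls and pairing were tested on simulated data. Versions were Python 3.11.15, numpy 2.4.6, pandas 2.3.3, scipy 1.17.1 and, for plots, matplotlib 3.10.9. Alternatives covered the window, distal limit, TSSs, excluded motifs, pairing distance, peak set and each replicate left out, and 1 more, leaving out members that share sequence, was chosen after seeing the data.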

Additional observations from a re-analysis of the deposited data

How the results depend on the processing

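With a window of 25 bp there were 319 members in place of 598, and ranking all mm9 peaks put 28.1% of members in the strongest 20% in place of 24.2%. The count at a spacer of 2 was 5.52 times the median of the other spacers with 25 bp windows, 3.46 times with 100 bp windows and 5.14 times in the stronger 50% of distal peaks, in place of 4.50. A composite lay in the window 200 bp from the summit in 0.920% of member windows, and in 2.17% with 100 bp windows. Pairing succeeded for 48.2% of members at 10 bp and 95% at 500 bp. The median rank of paired members, 7136.5 as the mean of both replicates, ranged from 5727 to 6835 with 1 replicate left out. The other 27 of 36 settings of these 7 results, the added one included, stayed within the interval of the value or within 1.5 times the count. Of motif shares 24 of 54 and of gene list shares 17 of 48 settings moved outside their interval. No paired analysis was possible because the series holds 1 group. Exact matches miss weaker sites, depth is unknown, and nearest genes are not shown to be targets.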
